A study of Mus musculus with 8 samples.

Results

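In mouse trophectoderm (TE) cultures made from embryonic stem cells (ESC), 1207 of the 42006 microarray probes differed between replicate 1 and replicate 2 in the same direction in both genotypes studied. The genotypes were wild type (wt) and LB dKO, which is null for Lmnb1 and Lmnb2, the genes of the B-type lamins. The members were chosen by measured values of the 4 TE arrays. A probe was taken when its log ratio on TE replicate 1 was higher than on replicate 2 by at least 0.8 (log2 scale) in wt and in LB dKO, or lower by at least 0.8 in both. It also had to be bright, with a sample signal at least 3 times the local background on both replicate 1 or both replicate 2 TE arrays, which 19513 probes were. Of the members, 405 were higher on replicate 1 and 802 were higher on replicate 2. The log ratio throughout is log2 of the sample over a common reference, from the processed scanner signals, with the median over all probes set to 0 on each array.

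The study measured ESC and TE of both genotypes on 8 Agilent 2-colour arrays, with 2 arrays in each of the 4 groups. Sample RNA was in Cy3 on every array, and the Cy5 channel held a reference of 2 parts RNA pooled from 11 mouse cell lines and 1 part RNA of 129 ESC. All lines were male, of a mixed background named as C57BL/6;129S4Sv/Jae;129S6/SvEvTac, and carried the transgene pCAG-Cdx2ER-IP at random sites, a Cdx2 fusion that tamoxifen switches on. TE groups had 2 days of 4-hydroxytamoxifen with FGF4 and heparin in 30% TS medium mixed with FCM, and then 6 days in 100% TS medium, whereas the ESC groups were the lines themselves, grown without tamoxifen and weaned from feeder cells. All lines came from blastocysts of mice heterozygous for both lamin genes, and clones with the transgene were selected with puromycin. The labels name 2 cell lines per genotype and do not say which array holds which line, or whether replicate 1 of wt and replicate 1 of LB dKO shared a culture day. For wt TE, the title and genotype entries name the wild type while the entry on genetic modification names a knockout; the title and genotype were followed. All ESC arrays lay on 1 slide and all TE arrays on another, so cell type and slide cannot be told apart. The files name probes by number and give no gene symbols, so neither the lamin deletion nor markers of ESC or TE could be read from them.

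The trophectoderm is the outer layer of the blastocyst and the source of the trophoblast cells of the placenta. Cdx2 is a transcription factor of this lineage, and its forced activity turns ESC towards trophoblast. Trophoblast stem cells are kept dividing by FGF4 with heparin and differentiate along several routes when these are absent, so that cultures can hold cells at different stages. In RNA from whole cultures, fewer cells of a type and less RNA per cell cannot be told apart.

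The probes are identified here by their sequences, 60 bases each as deposited, written 5′ to 3′. The first set was higher on replicate 1 than on replicate 2 in ESC as well as in TE, although the last of the set, Z00022549-1, had low signals in TE.
Z00064853-1: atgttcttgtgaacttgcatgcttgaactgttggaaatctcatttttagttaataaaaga
Z00025402-1: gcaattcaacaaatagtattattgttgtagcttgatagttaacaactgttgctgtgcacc
Z00063386-1: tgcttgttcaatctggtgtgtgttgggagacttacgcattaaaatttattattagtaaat
Z00031814-1: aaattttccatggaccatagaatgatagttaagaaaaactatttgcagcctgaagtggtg
Z00022549-1: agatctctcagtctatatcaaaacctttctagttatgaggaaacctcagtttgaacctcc

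The second set was near background on all ESC arrays and on TE replicate 1, and high on TE replicate 2.
Z00070283-1: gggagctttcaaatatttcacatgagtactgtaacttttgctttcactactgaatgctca
Z00060390-1: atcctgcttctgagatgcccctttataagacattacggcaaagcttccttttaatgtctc
Z00049739-1: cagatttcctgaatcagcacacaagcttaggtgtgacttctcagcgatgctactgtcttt

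The third set moved far between ESC and TE and to a different level on each TE replicate.
Z00026289-1: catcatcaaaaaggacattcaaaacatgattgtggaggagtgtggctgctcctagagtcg
Z00031231-1: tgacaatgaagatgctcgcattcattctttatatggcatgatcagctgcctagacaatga
Z00016189-1: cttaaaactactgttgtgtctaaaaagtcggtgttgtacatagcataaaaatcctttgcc
Z00063643-1: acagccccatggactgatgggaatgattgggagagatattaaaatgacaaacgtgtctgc

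The last set holds pairs of member probes that overlap in sequence, with the shared stretch in capitals. The probes of each pair share that stretch of sequence and were read from separate spots. Whether they read the same transcript was not tested.
Z00010007-1: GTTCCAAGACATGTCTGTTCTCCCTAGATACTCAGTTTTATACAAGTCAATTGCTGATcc
Z00075584-1: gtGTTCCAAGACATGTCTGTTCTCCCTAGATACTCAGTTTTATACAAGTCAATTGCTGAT
Z00035369-1: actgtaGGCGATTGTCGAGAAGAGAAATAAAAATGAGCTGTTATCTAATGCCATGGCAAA
Z00063311-1: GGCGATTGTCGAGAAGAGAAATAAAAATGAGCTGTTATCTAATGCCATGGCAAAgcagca
Z00024617-1: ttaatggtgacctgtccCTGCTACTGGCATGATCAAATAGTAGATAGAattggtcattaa
Z00061030-1: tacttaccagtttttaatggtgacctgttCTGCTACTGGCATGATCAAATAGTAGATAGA

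The scanner called 47.1% to 68% of the sample signals well above background, 61.2% to 68% on the TE arrays, and no probe was saturated. The median sample signal was 107 to 157 over a median local background of 42 to 47. With 2 arrays in a group, the number of arrays limits the precision, and the p-values below measure only the spread between these arrays.

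The differences that chose the members are a description and were not tested. Among the 405 members higher on replicate 1, the median difference was 1.83 in wt, a 3.56-fold difference, and 1.05 in LB dKO, a 2.08-fold difference. Among the 802 members higher on replicate 2, the median was -1.67 in wt (3.18-fold) and -1.13 in LB dKO (2.18-fold). The wt difference was the larger one for 1028 members, or 85.2%. Past the threshold in wt alone or with LB dKO were 4562 bright probes (23.4% of them), and 1495 (7.66%) passed it in LB dKO. Only 9 bright probes passed it in opposite directions in the genotypes.

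The size of the difference varied widely among the members. It reached at least 2, a 4-fold difference, in both genotypes for 95 members, 21 of them higher on replicate 1 and 74 higher on replicate 2. It reached at least 3 in both for 21 members, of which 18 were higher on replicate 2. Across the 19513 bright probes the wt and LB dKO differences correlated with r = 0.76; this r is across probes, which share their arrays and are not independent replicates.

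Values on either side of the threshold were close together. Just inside it, Z00070177-1 differed by 1.02 in wt and 0.80 in LB dKO, and Z00042421-1 by -1.48 and -0.80. Just outside it, Z00043819-1 differed by 1.30 in wt and by 0.799 in LB dKO. The number of members therefore follows the threshold: 2115 probes passed 0.6 and 700 passed 1.0 in both genotypes.

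Replicate 1 of wt TE was the array that stood farthest out. It was the farthest of the 4 TE arrays from their median for 960 members (79.5%), against 113 for replicate 2 of LB dKO TE, 68 for replicate 2 of wt TE and 66 for replicate 1 of LB dKO TE. The median size of the gap between wt and LB dKO was 0.79 on the replicate 1 arrays and 0.28 on the replicate 2 arrays. Of the 405 members higher on replicate 1, 367 were higher in wt than in LB dKO on that replicate. Replicate 2 of both genotypes thus held the more similar levels of these probes. A wider replicate difference in wt TE was not limited to the members. Over all 19513 bright probes its SD was 0.84 in wt TE and 0.47 in LB dKO TE. Which array stood farthest out was not counted over the bright probes.

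The sample channel carried most of the difference. In that channel alone, members higher on replicate 1 had median differences of 2.06 in wt and 1.34 in LB dKO, and members higher on replicate 2 had -1.75 and -1.03. In the reference channel, whose RNA was the same on all arrays, the corresponding medians were 0.31 and 0.08, then 0.04 and -0.05. The reference channel differed by at least 0.8 in both genotypes for 45 of the 1207 members. In 33 of the 802 members higher on replicate 2, the reference was also higher on replicate 2 by that much in both genotypes.

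The clearest case in the reference channel was Z00035497-1, singled out after its values were seen. Its mean sample signal was 64 on replicate 1 and 6279 on replicate 2 of wt TE, and 83 and 12584 in LB dKO TE. Its mean reference signal was 65 and 1976 in wt TE, and 62 and 2486 in LB dKO TE. On the ESC arrays its reference signal was 62 to 69, so this spot was bright in both colours on the replicate 2 TE arrays and dim in both colours on the other 6. What raised the reference signal was not tested.

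The balance of the directions depended on where 0 was set on each array. The bright probes as a whole had a median replicate difference of 0.11 in wt TE and -0.18 in LB dKO TE. Centring each array on the bright probes, an alternative chosen after seeing the data, gave 1180 members, 614 higher on replicate 1 and 566 higher on replicate 2, with 937 shared. Normexp background correction with loess gave 648, split 337 and 311, with 524 shared. The sample channel alone gave 1700, split 894 and 806, with 937 shared. Members higher on replicate 2 thus outnumbered the others only on the scale of the rule, and did so with its other thresholds and brightness limits.

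Overlapping probes gave a check from separate spots. There were 32 pairs in which both probes were members and shared 26 to 59 bases, and in all 32 the probes went the same way, 14 pairs higher on replicate 1 and 18 higher on replicate 2. The median gap between the differences of a pair was 0.11 in wt (largest 0.98) and 0.08 in LB dKO (largest 0.52). In Z00024617-1 and Z00061030-1, which share 31 bases, the differences were 2.66 and 2.70 in wt and 1.61 and 1.63 in LB dKO. In Z00035369-1 and Z00063311-1, with 54 shared bases, they were -3.63 and -3.68 in wt and -2.38 and -2.26 in LB dKO. In Z00010007-1 and Z00075584-1, with 58 shared bases, they were 2.41 and 2.37, then 1.47 and 1.42. Both probes of a pair had to pass the rule to be counted here. In the 46 pairs with only 1 member, the partner differed the same way in both genotypes in 43. However, 29 of these 46 held Z00073032-1 or Z00073039-1, which overlap each other and many probes of like sequence; in the other 17 the partner went the same way in 14. Where the partner was bright, it went the same way in 13 of 14. Among all bright probes 65% had differences of 1 sign, in either direction, in both genotypes, and among all probes 60% did. These shares count both directions, so they are not shares going the way of a given member.

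Members higher on replicate 1 with the widest ratios lay near background on replicate 2 of wt TE, where a ratio is inexact and its order uncertain. The signals below are the firmer values. Only 1 of all 405 was at background on the replicate 2 arrays of both genotypes at once. In 399 of the 405, the signal stood well above background on every one of the 4 TE arrays. The log ratio of Z00064853-1 was 1.26 on replicate 1 and -9.23 on replicate 2 of wt TE, and -0.31 and -4.30 in LB dKO TE. In ESC it was 0.68 and -8.46 in wt, and -0.26 and -3.39 in LB dKO. The replicates thus differed in the stem cells as well, and more in wt than in LB dKO. Its mean sample signals showed the same order: 4126 and 75 in wt ESC, 2155 and 302 in LB dKO ESC, 6470 and 62 in wt TE, and 2640 and 209 in LB dKO TE.

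Z00025402-1 followed the same pattern, with sample signals of 7166 and 82 in wt ESC, 1900 and 158 in LB dKO ESC, 3159 and 63 in wt TE, and 1391 and 100 in LB dKO TE. For Z00063386-1 they were 2318 and 90, 1542 and 186, 1275 and 64, and 872 and 102 in the same order of groups. For Z00031814-1 they were 996 and 114, 454 and 140, 1287 and 79, and 554 and 119. In these 4 probes the replicate 1 arrays lay above all replicate 2 arrays without overlap, in both cell types and genotypes. Z00022549-1 had 2148 and 77 in wt ESC and 739 and 142 in LB dKO ESC, then 154 and 63 in wt TE and 140 and 79 in LB dKO TE, so its high level was in ESC.

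These 5 probes were the only members whose ESC replicates also differed by at least 2 in the TE direction in both genotypes, and they were chosen after their values were seen. With normexp and loess, 4 of the 5 did so; Z00031814-1 differed by 3.61 in wt ESC and 1.85 in LB dKO ESC. On replicate 2 their wt signals lay near background and their LB dKO signals lay between those and the replicate 1 signals. None of the 5 passed the test for TE against ESC in either genotype. The limma adjusted p of Z00064853-1 was 0.986 in wt and 0.922 in LB dKO, and that of Z00022549-1 was 0.497 and 0.306. The changes of Z00064853-1 were -0.09 and -0.48 with a standard error of 3.57. Those of Z00022549-1 were -2.18 and -3.23 with a standard error of 2.47. The 5 were chosen for wide replicate differences, which enter the standard error. The test therefore cannot decide whether their levels changed from ESC to TE.

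The 10 members with the largest excess on replicate 2 in both genotypes were dim in ESC, with Z00055217-1 well above background on 1 ESC array, and dim on TE replicate 1. Z00070283-1 had a mean sample signal of 68 and 2727 on the wt TE replicates and 100 and 4157 on the LB dKO TE replicates, against 61 to 81 on the ESC arrays. Z00060390-1 had 72 and 4112 in wt TE and 90 and 8847 in LB dKO TE, against 71 to 95 in ESC. Z00049739-1 had 77 and 1016, then 73 and 2336, against 67 to 86. All 3 stayed near background on replicate 1 of both genotypes.

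The other 7 of the 10 differed in how bright replicate 2 was. Z00056754-1 had 71 and 547 in wt TE and 81 and 694 in LB dKO TE. Z00051868-1 had 69 and 473, then 90 and 612. Z00051532-1 had 74 and 435, then 94 and 523. Z00055217-1 had 80 and 2359 in wt TE but 82 and 534 in LB dKO TE, and 64 to 165 in ESC, with its highest ESC signal on wt replicate 2. Z00000343-1 had 66 and 506, then 74 and 158. Replicate 2 signals were 139 and 202 for Z00023476-1 and 150 and 167 for Z00032372-1, not far above the replicate 1 signals of 67 and 95, and 64 and 71.

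The reference signal of these 10 probes was also low, so that processed ratios rest on values near background, and a replicate difference of -7.86 for Z00070283-1 in wt is less exact than its signals. The reference signal of Z00060390-1 was 63 and 134 on the wt TE replicates and 68 and 143 in LB dKO TE. That of Z00049739-1 was 76 and 111, then 57 and 133. In both probes the reference signal was higher on replicate 2, though far less than the sample signal.

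Most members were detected in ESC, but fewer of them than of the bright probes in general. In limma's fit, 27359 probes were tested, those that rose well above background on each array of 1 group or more. Probes with a spot flagged as an outlier on any array were left out. These included 1194 members, all 405 higher on replicate 1 and 789 of the 802 higher on replicate 2. Of the 1194, 798 (66.8%) stood well above background on every one of the 4 ESC arrays, 248 (20.8%) on 1 to 3, and 148 (12.4%) on none. Among the bright probes tested these shares were 88.9%, 8.62% and 2.46%. For 21 members both channels were dim on all 4 ESC arrays, where substitute values set the log ratio and give no level.

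On the ESC arrays, which the rule did not use, few members differed between replicates as they did in TE. In both genotypes, 21 of the 1207 members (1.74%) differed by at least 0.8 in the TE direction and 32 (2.65%) in the opposite direction. Of all bright probes, 1.73% differed that far in either direction, a smaller share than of the members. Of the members higher on TE replicate 1, 7 of 405 (1.73%) were higher on ESC replicate 1, beside 0.0922% of all bright probes. Another 29 (7.16%) were higher on ESC replicate 2, beside 1.63%. Of the members higher on TE replicate 2, 14 of 802 (1.75%) were higher on ESC replicate 2 and 3 (0.374%) were higher on ESC replicate 1. The unequal shares among bright probes go with their median ESC replicate difference of -0.38 in wt, against 0.04 in LB dKO. Normexp and loess brought those medians to 0.01 and 0.02, and the counts to 9 in the TE direction and 10 opposite.

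Members higher on TE replicate 1 but lower on ESC replicate 1 by at least 2 in both genotypes numbered 2. In Z00016189-1 the ESC replicates differed by -2.84 in wt and -3.06 in LB dKO, with sample signals of 117 and 361, then 82 and 224. Z00004601-1 differed by -2.01 and -2.06 at signals of 79 to 120. Across the bright probes, replicate differences of wt and LB dKO in ESC correlated with r = 0.53, whereas those of ESC and TE correlated with r from 0.02 to 0.09; probes share arrays and are not replicates.

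From ESC to TE, more members rose than fell. In wt, 603 of the 1194 members tested passed limma's test at an adjusted p under 0.05 (50.5%), where 48.8% of all tested probes did. Of these, 477 rose (39.9%) and 126 fell (10.6%), where 25.2% of all tested probes rose and 23.6% fell. The median change was 1.19 in members and 0.07 over all tested probes. In LB dKO, 633 members passed (53%, beside 51.1% of all tested probes), with 535 higher and 98 lower (44.8% and 8.21%, beside 29.1% and 22%). The median change there was 1.37 in members and 0.18 over all tested probes.

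The rule had a part in this balance, because it asked for brightness in TE and not in ESC. Among the bright probes, which met that condition, 29.7% rose and 21.7% fell in wt, and 33.9% rose and 19.5% fell in LB dKO. The rule also chose probes with a wide spread in TE, so that the median standard error of the change was 0.60 in wt members and 0.31 over bright probes. Among members well above background on all 8 arrays, 394 of 793 passed in wt and 62.7% of those rose, and 420 passed in LB dKO with 70.2% higher. Of all probes under the same filter, 55.1% passed in wt and 56.6% in LB dKO. Their median change was -0.12 in wt and 0.03 in LB dKO, and how many of those passing rose was not counted. The count of 603 in wt moved with the arrays. It was lower when either wt ESC array was left out, and so was the share of all tested probes called. It was higher when either wt TE array was left out, while that share was not. The median wt change of all tested probes was -0.17 without wt ESC replicate 1 and 0.29 without wt ESC replicate 2.

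In both genotypes together, 424 members rose (35.5%) and 91 fell (7.62%), where 23.2% and 20.1% of all tested probes did. Of the 148 members well above background on no ESC array, 123 rose. None of the 148 fell, nor did any bright probe so placed. Brightness in TE was part of the rule, so the direction of these members was largely set by how they were chosen. Of the 798 detected on all 4 ESC arrays, 182 rose (22.8%) and 91 fell (11.4%), beside 22.3% and 20.5% of the bright probes so detected. Of the 248 detected on 1 to 3 ESC arrays, 48% rose, beside 69.3% of the bright probes so detected, and of those detected on none, 83.1% rose, beside 92.5%. These shares are descriptions, and the wide spread of the members enters each of them.

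Each TE replicate lay at a different distance from ESC. For the 155 members that rose in both genotypes and were higher on replicate 1, the median level above ESC was 4.49 on wt replicate 1 and 3.65 on LB dKO replicate 1, against 2.51 and 2.50 on replicate 2. For the 269 that rose and were higher on replicate 2, it was 1.99 and 2.88 on replicate 1, against 3.75 and 4.12 on replicate 2. Both sets were above ESC on both replicates, with the order of the replicates fixed by the rule. Over all tested members, the median change from ESC, as the mean of both genotypes, was 1.43 in those higher on replicate 1 and 1.26 in those higher on replicate 2, beside 0.23 over bright probes.

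Members that fell were also split. The 38 that were higher on replicate 1 had fallen by medians of -1.73 in wt and -2.21 in LB dKO on replicate 1, and of -3.31 and -3.16 on replicate 2. The 53 that were higher on replicate 2 had medians of -3.34 and -2.69 on replicate 1, and of -2.06 and -1.57 on replicate 2. Which replicate lay nearer to ESC in each set was fixed by the rule. The other 679 members did not pass in both genotypes in 1 direction. Among them, 40 lay above ESC on replicate 1 and below it on replicate 2 in both genotypes, and 95 lay below and then above.

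Z00016189-1 had the largest rise among members higher on replicate 1. Its sample signal was 117 and 361 in wt ESC, 82 and 224 in LB dKO ESC, 43596 and 22947 in wt TE, and 36131 and 17238 in LB dKO TE. It was well above background on 3 of the 4 ESC arrays. TE and ESC arrays did not overlap, and both TE replicates were far above ESC. The change was 9.24 with a standard error of 1.13 in wt (limma adjusted p = 0.000288) and 8.89 ± 1.13 in LB dKO (limma adjusted p = 0.000329).

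Z00034467-1 was not well above background on any ESC array, with signals of 75 to 101. In TE its signals were 9632 and 3054 in wt and 9883 and 2944 in LB dKO. It was at least 79.8-fold higher in TE of wt (limma adjusted p = 2.73e-05) and at least 57.9-fold higher in LB dKO (limma adjusted p = 3.15e-05), with the ESC arrays set at their lowest signal well above background. Z00010007-1, of the overlapping pair above, had ESC signals of 83 to 104 and TE signals of 16207 and 3157 in wt and 9995 and 3985 in LB dKO.

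Z00026289-1 had a log ratio of -5.81 and -5.38 in wt ESC and -5.60 and -5.56 in LB dKO ESC. In TE it was 2.40 and -0.66 in wt, and 0.71 and -1.83 in LB dKO. Its sample signal was 27951 and 3455 in wt TE, an 8.35-fold difference in log ratio, and 11670 and 1776 in LB dKO TE, a 5.83-fold difference. The ESC replicates lay within 0.43 of each other, so the spread appeared in TE. The rise was 6.46 ± 0.99 (SE) in wt (limma adjusted p = 0.000913) and 5.02 ± 0.99 in LB dKO (limma adjusted p = 0.0031).

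Among members higher on replicate 2, Z00031231-1 had the largest rise. Its sample signal was 88 and 100 in wt ESC and 72 and 99 in LB dKO ESC. In TE it was 1598 and 11676 in wt, and 1347 and 17386 in LB dKO. It was at least 61.5-fold higher in wt TE than in ESC (limma adjusted p = 0.00108) and at least 47.7-fold higher in LB dKO TE (limma adjusted p = 0.000864). Z00005142-1 was at 70 to 88 in ESC, at 440 and 2788 in wt TE, and at 396 and 4238 in LB dKO TE. In Z00059948-1 the wt TE signals were 278 and 3450 and the LB dKO TE signals 1571 and 3769, against 67 to 97 in ESC. All 3 were near background in ESC and rose on both TE replicates.

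The largest fall was that of Z00063643-1, which was higher on replicate 1. Its log ratio in ESC was 2.32 and 2.37 in wt, and 2.60 and 2.22 in LB dKO. In TE it was -4.27 and -7.90 in wt, and -5.12 and -8.03 in LB dKO. The sample signals were 23851 to 42569 in ESC, 374 and 83 in wt TE, and 254 and 86 in LB dKO TE. On replicate 1 a low signal was left, while on replicate 2 the signal was near background. The fall was -8.43 ± 1.15 (SE) in wt (limma adjusted p = 0.000489) and -8.99 ± 1.15 in LB dKO (limma adjusted p = 0.000332).

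Z00022413-1 and Z00038583-1 fell in the same manner. Z00022413-1 went from 16225 to 29274 in ESC down to 214 and 101 in wt TE and 165 and 99 in LB dKO TE. Z00038583-1 was at 96725 to 176113 in ESC, at 1301 and 465 in wt TE, and at 935 and 441 in LB dKO TE. Z00057176-1 fell with the opposite order of replicates, from 8929 to 16776 in ESC down to 182 and 433 in wt TE and 491 and 868 in LB dKO TE. Z00076164-1 and Z00034921-1 fell as well, but their ESC arrays disagreed in LB dKO. Their LB dKO ESC signals were 1235 and 6369, and 678 and 3429, against 13116 and 11469, and 5927 and 5386, in wt.

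Among the other members with the largest excess on replicate 1, some did not pass the test for TE against ESC in both genotypes. The log ratio of Z00059689-1 was 0.26 on replicate 1 and -5.90 on replicate 2 in wt TE, and -2.15 and -4.93 in LB dKO TE, against -3.34 to -2.26 in ESC. In wt, replicate 1 of this probe lay above and replicate 2 below the ESC arrays. In LB dKO, replicate 2 lay below them, but replicate 1 at -2.15 barely exceeded ESC replicate 2 at -2.26. The sample signals of those 2 arrays were 249 and 252. For Z00030432-1 the TE sample signals were 1718 and 321 in wt and 1646 and 254 in LB dKO, against 283 to 461 in ESC, so that only replicate 1 stood apart. Z00026422-1 had signals of 528 and 141 in wt TE and 274 and 85 in LB dKO TE, against 84 to 102 in ESC; it was not well above background in wt ESC. In wt the TE level was at least 4.07-fold that of ESC (limma adjusted p = 0.00404), while in LB dKO the limma adjusted p was 0.11, with 1 of the ESC arrays well above background. The difference of genotype effects for this probe was -2.57 ± 1.33 (SE), which did not pass in the fit without a term for the replicate number. The rule chose probes with a wide spread in TE, and that spread enters the standard error. The test therefore cannot decide whether the genotypes differed in this. Z00029399-1 passed in both genotypes. It was at 69 to 92 in ESC, not well above background, at 359 and 94 in wt TE and at 221 and 106 in LB dKO TE. It was at least 2.51-fold higher in wt TE (limma adjusted p = 0.00428) and at least 1.89-fold higher in LB dKO TE (limma adjusted p = 0.0101). Both channels were dim on 3 of its ESC arrays, where substitute values set the log ratio, so these p-values rest in part on substitute values. On TE replicate 2 its signals of 94 and 106 lay close to the highest ESC signal of 92.

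In the fit without a term for the replicate number, no member passed limma's test for genotype. Within ESC, 0 of 1194 members had an adjusted p under 0.05, where 0.183% of all tested probes did (0.0768% higher and 0.106% lower in LB dKO), and 24 members had an unadjusted p under 0.05. Within TE, 0 members passed, beside 0.143% of all tested probes (0.0768% higher and 0.0658% lower in LB dKO), with 23 at an unadjusted p under 0.05. For the difference of the genotype effect between TE and ESC, 0 members passed, beside 0.00366% of all tested probes, with 24 at an unadjusted p under 0.05. The spread that the rule selected enters these tests. Leaving out wt TE replicate 2 gave 277 members called for genotype in TE, beside 4.27% of all tested probes, and 91 for the difference of effects, beside 1.59%. That fit holds wt TE replicate 1 alone, the array farthest out, assumed to vary like the other groups, and it no longer holds the wt TE replicate difference on which members were chosen. Leaving out wt TE replicate 1 gave 1 and 0. Leaving out either wt TE array gave 7 members called in ESC, beside 0.837% of all tested probes.

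Base composition and position on the array were the features of the probes left to compare. G and C made up 41.90% ± 6.73 (SD over 405 probes) of the members higher on replicate 1 and 44.22% ± 7.15 (SD over 802 probes) of those higher on replicate 2. The bright probes had 44.20% ± 8.37 (SD over 19513 probes). The median array row was 290 and 256 in the same order of members, beside 269 for the bright probes. These differences were not tested.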

How the data were processed

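The arrays were scanned by the authors and read with Agilent Feature Extraction 9.5.1.1 (protocol GE2-v5_95_Feb07), per the file headers. The deposited files give spot and background intensity, processed intensity, a log10 ratio, and flags of 0 or 1 per spot, which averaged over spots become a fraction. Per the file headers, a further column is a score that is 0 for most spots and otherwise holds the substitute value the software gave a dim spot. A deposited value table of 25030 features is on a log10 scale, and differences between its columns followed the processed log ratios with a correlation of 1 across probes; how its features were chosen and its centring are unknown, and its column medians were 2.27 to 2.33.

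Here, control spots were left out, spots of a probe were averaged (7 of 42006 probes had several), and log2 of sample over reference was centred on each array's median. Substitute values for dim spots were kept. Tests used limma 3.58.1 (lmFit and eBayes; R 4.3.3), with all 8 arrays and 4 group means, over 27359 probes, with Benjamini-Hochberg adjustment and a threshold of 0.05. Bounds ("at least N-fold") came from the sample channel after loess and Aquantile and are open to dye bias, since no dyes were swapped. The fits were tested on simulated data.

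Members and lists were chosen with earlier results of these data known. Probes named were, per direction, the 10 with the largest smaller-of-both-genotypes difference, the 3 with the largest rise and fall from ESC to TE, and those next to the threshold; others are marked as chosen after their values were seen. Lists of marker genes could not be applied, as the probes carry no gene names here.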

Additional observations from a re-analysis of the deposited data

How the results depend on the processing

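Of 366 checks on the named changes from ESC to TE, 361 kept direction and side of the threshold, 5 lost the call (Z00076164-1 and Z00034921-1 in LB dKO) and none turned. Members called for TE against ESC were 603 in wt and 633 in LB dKO. They were 370 and 377 with the deposited values (846 members held), 296 and 340 without a filter on dim probes, and 394 and 420 with probes well above background on all 8 arrays. Leaving out 1 array gave 305 to 786 in wt and 472 to 854 in LB dKO. For genotype, leaving out 1 array gave 0 to 7 calls in ESC, 0 to 277 in TE and 0 to 91 for the difference of effects; at the highest counts 0.837%, 4.27% and 1.59% of all tested probes were called. Scaling on the sample channel alone moved the median change of all tested probes from 0.07 to -0.07 in wt and from 0.18 to -0.05 in LB dKO.

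The number of members was 2115 at a threshold of 0.6, 700 at 1.0, 648 with normexp and loess, 1979 with the well-above-background flag and 725 with brightness on all 4 TE arrays. Members differing in ESC in the TE direction were 21, then 9 with normexp and loess, 40 in the sample channel alone and 8 when well above background on all 4 ESC arrays. Centring on the bright probes, chosen after seeing the data, gave 22.

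Replicate numbers are not said to pair the arrays. Replicate differences correlated across tested probes with r = 0.62 between genotypes in TE, 0.36 in ESC, and between -0.00 and 0.04 across cell types. A replicate block over all groups called 709 members in wt and 749 in LB dKO for TE against ESC, beside 51.3% and 53.6% of all tested probes. For genotype it called 1 member in ESC and 0 in TE, beside 0.256% and 0.168%. A replicate block within each cell type called 800 and 830 (47.2% and 48.7% of all tested probes), then 59 for genotype in ESC, 134 in TE and 75 for the difference of effects (2.71%, 2.74% and 1.96%); the rule had chosen the members on the TE replicate difference that this block takes out. Signals near background limit the ratios of dim probes, and 2 arrays a group limit all tests.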
